A study of Mus musculus with 15 samples.

Results

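The genes described here encode the proteins of the cytoplasmic ribosome, together with the processed copies of these genes that are scattered over the mouse genome. They were taken by name from the deposited tables: symbols that start with Rpl or Rps and a digit, Rplp0 to Rplp2 and Rpsa, without the S6 kinases (Rps6k) and Rps19bp1. This rule gave 281 of the 20723 gene names in the 4 tables, of which 90 had the name of a protein gene and 191 carried the ending -ps that marks a pseudogene copy. In the GENCODE M21 annotation 84 of the 90 were protein coding and 6 were themselves annotated as pseudogenes (Rpl32l, Rpl37rt, Rpl6l, Rps3a2, Rps3a3 and Rps4l), while 4 of the 191 copies were annotated as protein coding (Rpl9-ps6, Rpl10-ps3, Rpl36a-ps1 and Rps12-ps3). Only rows with 3 or more libraries at 10 or above in their table were tested, a filter that 88 protein genes and 59 copies passed in at least 1 table.

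RNA had been sequenced from total bone marrow of leukemic C57BL/6 mice, 15 libraries in 5 groups of 3. Lineage-depleted marrow cells had been given the MLL-AF9 fusion oncogene and a GFP reporter on a retrovirus, sorted, transplanted after irradiation with 7 and 3 Gy, and passed on serially after 3 Gy, and marrow of the quaternary recipients was used. Group 36S was homozygous for human GFI1 at the mouse Gfi1 locus, group 36N for the 36N variant of human GFI1, and group KD expressed human GFI1 at 10 to 20%, so that the controls also carried the human gene. The remaining groups, 36S TMZ and 36N TMZ, were leukemic marrow cells treated with 50 µg/ml temozolomide (TMZ), a DNA-methylating drug, 20 h before RNA isolation. Total marrow can hold residual host cells beside leukemic ones, and the sources used here give no ages, pooling or number of independent leukemias per group, so p-values measure the spread between these libraries only. In bulk RNA, fewer cells of a type and less RNA per cell cannot be told apart.

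A ribosome is built from a small and a large subunit, each an RNA core covered by proteins that are made in equal numbers and assembled in the nucleolus. Ribosomal protein mRNAs are short, abundant and, in mammals, mostly begin with a C followed by a run of pyrimidines (the TOP motif), through which their translation responds to mTOR. Because such mRNAs have often been reverse transcribed and inserted back into the genome, most ribosomal protein genes have intronless copies of nearly the same sequence, and a short read from the gene can match a copy equally well.

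How alike gene and copy are is shown by the first 60 coding bases of members that the results below turn on (GENCODE M21 transcripts, GRCm38). Capitals mark bases that differ from the protein gene named first in each set. Rps12, a small subunit protein, lies at chr10:23785183-23787275 on the minus strand, and its copy Rps12-ps3 at chr19:59322290-59322783 on the plus strand.
Rps12: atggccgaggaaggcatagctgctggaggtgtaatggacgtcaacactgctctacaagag
Rps12-ps3: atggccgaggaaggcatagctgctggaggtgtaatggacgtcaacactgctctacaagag

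Rps27, a small subunit protein with a zinc finger, lies at chr3:90212522-90213651 on the minus strand. Rps27rt, a retrogene of Rps27, lies at chr9:114982366-114982739 on the minus strand.
Rps27: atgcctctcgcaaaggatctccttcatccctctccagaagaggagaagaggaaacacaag
Rps27rt: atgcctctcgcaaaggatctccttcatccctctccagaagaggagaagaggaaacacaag

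Rpl36a, a large subunit protein, lies at chrX:134585654-134588062 on the plus strand, its copy Rpl36a-ps2 at chr3:145879020-145879340 on the plus strand, and its expressed paralog Rpl36al at chr12:69182731-69184083 on the minus strand.
Rpl36a: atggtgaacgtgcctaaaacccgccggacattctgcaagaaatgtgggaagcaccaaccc
Rpl36a-ps2: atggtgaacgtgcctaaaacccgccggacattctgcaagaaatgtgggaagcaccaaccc
Rpl36al: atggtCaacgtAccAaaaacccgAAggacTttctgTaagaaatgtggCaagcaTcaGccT

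Over the whole coding sequence Rps12-ps3 differed from Rps12 at 0 of 396 bases, Rps27rt from Rps27 at 0 of 252 and Rpl36a-ps2 from Rpl36a at 0 of 318, whereas the paralog Rpl36al differed from Rpl36a at 39 of 318. Among the 41 copies tested in the TMZ table of 36N, the median identity to the transcript of the gene named was 99.6%, with the lowest at 87.5%. A median of 5.65% of a copy's runs of 31 bases occurred in no other annotated gene, against 43.7% for the 88 protein genes of that table. For Rps12-ps3 this share was 0% and for Rps12 it was 15.9%, while Rps27 had 1.27% and Rplp0 had 46.7%. Values of a gene and of its copies were therefore described apart and also as a sum, and a value of 1 of them alone is uncertain wherever the share is low.

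Promoter windows of RefSeq (GRCm38.p6) were read for the pyrimidine run at the transcription start. The windows below hold 20 bases before and 20 bases from the annotated start, and capitals mark an unbroken run of C and T that covers the first base of the transcript. Rps27 and Rps15a are shown since they were among the protein genes with the lowest p between treated and untreated 36N cells, Rpl7a and Rpl27a for their long runs, and Rplp0 since it was the protein gene that differed in KD.
Rps27, chr3:90213629-90213668, minus strand: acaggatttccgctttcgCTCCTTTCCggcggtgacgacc
Rps15a, chr7:118116128-118116167, minus strand: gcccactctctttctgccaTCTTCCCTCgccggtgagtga
Rpl7a, chr2:26910787-26910826, plus strand: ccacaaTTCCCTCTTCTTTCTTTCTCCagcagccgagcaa
Rpl27a, chr7:109519175-109519214, plus strand: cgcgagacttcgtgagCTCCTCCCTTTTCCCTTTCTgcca
Rplp0, chr5:115559447-115559486, plus strand: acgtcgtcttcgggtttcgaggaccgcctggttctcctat

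A run of at least 7 pyrimidines over the first base was found in 21 of 80 promoters taken by the name rule (26.2%). The 21 include those of the pseudogene Rpl32l and of Rps23rg1, which were not tested, while 19 belong to tested protein genes. Such a run was found in 5 of 16 promoters of other TOP mRNA genes of translation (31.2%). It was found in 1 of 75 promoters of mitochondrial ribosomal proteins (1.33%) and in 5.28% of all 32851 promoters of the table. The 40-base window of Rplp0 held no such run at the annotated start. A match, or the lack of one, describes only the letters at the annotated start.

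All values are the authors' normalized counts per gene, which have no unit of length, so genes were ranked per 1000 transcript bases. In untreated 36S and 36N cells Rpl13, a large subunit protein, was highest at 22468 per 1000 bases (mean of 6 libraries), followed by Rps26 at 21768 and Rpl28 at 21321. The lowest of the 84 tested protein genes was Rpl3l, the muscle paralog of Rpl3, at 8.17 per 1000 bases. These ranks hold for this table and for the annotated transcript lengths used. In the same untreated 36N libraries Rpl28 had a mean log2 value of 14.53 in this table and 13.50 in the TMZ table of 36N. Rpl13 had 14.11 and 14.52. Copies were lower by far: of the 14 tested in that table, 8 had a 36S mean under 100, and the highest was Rps2-ps10 at 1893.

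Summed over all protein genes, ribosomal protein mRNA made up between 3.35 and 6.71% of a library's total. Untreated 36S libraries 1 to 3 were at 5.98, 4.93 and 4.78%, 36N libraries 4 to 6 at 5.56, 5.41 and 4.50%, and KD libraries 7 to 9 at 5.87, 4.11 and 5.8%. These 3 groups overlapped. In the 36N table on TMZ the untreated libraries were at 4.91, 4.77 and 3.96% and the treated ones at 4.63, 4.45 and 4.40%, which again overlapped. Copies made up 0.0503 to 0.0688% of the untreated libraries of the genotype tables. In the TMZ table they made up 0.0588, 0.0610 and 0.0575% of untreated and 0.593, 0.588 and 0.581% of treated 36N libraries, so that treated and untreated did not overlap.

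**Figure D1:**
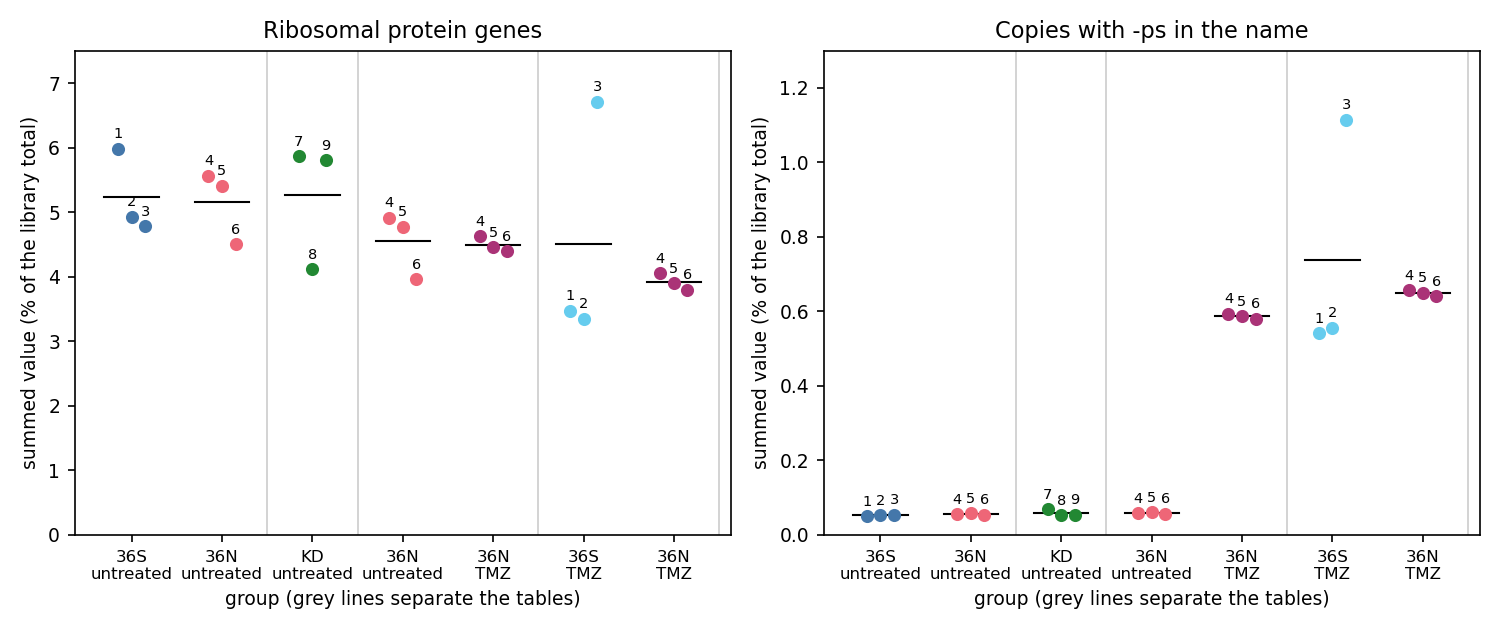
Share of each library's summed normalized value (vertical axis, %) from ribosomal protein genes (left) and from copies with -ps in the name (right), by group, where points are libraries with their numbers, black lines are means, and grey lines separate tables. Protein gene shares overlapped between untreated groups, library 3 of 36S TMZ was highest at 6.71%, and copy shares in TMZ libraries were at 0.542% or more.

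In the untreated groups and in 36S TMZ the protein genes moved together from library to library. They did so less in 36N TMZ, with median deviations of -0.04, -0.06 and 0.10 in libraries 4 to 6 of the TMZ table of 36N. In KD, library 8 had the lowest value of the group for 84 of 85 protein genes, with a median of -0.67 on the log2 scale from the mean of the other libraries of the group. In 36S, library 1 was highest for 80 of 84, with a median deviation of 0.37, and in 36S TMZ library 3 was highest for 81 of 87, with a median deviation of 1.05. In these 3 libraries other genes with transcripts under 1000 bases deviated the same way, by -0.51, 0.27 and 0.69, while genes with longer transcripts deviated by 0.02, -0.02 and -0.10. In untreated 36N, library 6 was lowest for 79 of 84 protein genes, with a median deviation of -0.30. There the short and longer transcripts of other genes deviated by -0.12 and 0.002. The part of transcript length or RNA quality in these deviations was not tested. For several results that library 8 of KD or library 3 of 36S TMZ could shift, values without that library are also given.

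For the 36N variant against 36S in untreated cells, ribosomal protein mRNA levels differed by less than could be called. Of 84 protein genes 0 passed an adjusted p of 0.05 in either direction (limma, Benjamini-Hochberg over 13137 genes), where 4.56% of all genes tested passed. At an unadjusted p under 0.05 there were 2. The median log2 difference was -0.02, as for all genes tested (-0.01), and single genes lay between -0.40 and 0.27. Of 14 copies that passed the filter 1 was higher and 0 were lower, beside 2.55% of all genes higher and 2.01% lower.

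The gene with the lowest p was Rpl15, a large subunit protein, with 8708, 6624 and 6334 in 36S and 6033, 5736 and 4640 in 36N. These groups did not overlap, but the difference of -0.40 (log2, SE 0.15) had an adjusted p of 0.19 in limma. Rpl5, which with Rpl11 and 5S RNA forms the particle that binds the p53 regulator Mdm2, had 3070, 3433 and 3565 in 36S and 4004, 4266 and 3703 in 36N, a difference of 0.25 (SE 0.11, adjusted p 0.23 in limma). Rpl7l1, a paralog of Rpl7, had 807, 731 and 729 in 36S and 716, 627 and 587 in 36N (-0.23, SE 0.12, adjusted p 0.31 in limma). These 3 were the protein genes whose groups did not overlap, 3 of 84 against 26.9% of all genes tested.

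The copy that was higher in 36N was Rpl15-ps2, at chr9:72060937-72061549 on the plus strand inside Tcf12, which is transcribed from the other strand. Its values were 1.12, 4.67 and 2.88 in 36S and 102, 65.4 and 42.2 in 36N, and no library of 36N was as low as one of 36S. It entered the test through 36N alone, since no 36S library reached 10, so its call is given as a description, with a difference of 4.21 on the log2(value + 1) scale. Of the 14 copies 2 had no 36S library at 10. KD libraries had 0, 4.56 and 6.22. The coding part of Rpl15-ps2 differed from Rpl15 at 8 of 610 aligned bases, and 10.6% of its runs of 31 bases were in no other gene. Tcf12 differed by 0.06 between the groups (adjusted p 0.82 in limma).

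For KD, the low level of GFI1, against 36S, 1 of 85 protein genes was lower and 0 were higher (limma, adjusted p under 0.05 over 13109 genes), where 11.5% of all genes tested passed (6.61% higher and 4.86% lower). At an unadjusted p under 0.05 there were 4. The gene that fell was Rplp0, which encodes P0, the base of the ribosomal stalk that carries the P1 and P2 dimers and recruits elongation factors. Its values were 13274, 12042 and 11374 in 36S and 6892, 4428 and 6562 in KD, so that every KD library was below every 36S library. Groups without overlap were found for 2 of the 85 protein genes and for 31.5% of all genes. The difference was -1.06 (log2, SE 0.19, adjusted p 0.0073 in limma). In 36N the values were 14258, 13640 and 10780, which overlapped with 36S, with a difference of 0.07 (SE 0.14, adjusted p 0.81 in limma).

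The stalk partners of Rplp0 are named here after its value was seen. Rplp1 had 9829, 7305 and 7129 in 36S and 9741, 5758 and 9912 in KD. Rplp2 had 7664, 5821 and 5064 in 36S and 10186, 5397 and 9622 in KD, a difference of 0.41 (SE 0.25, adjusted p 0.35 in limma). For both, the groups overlapped, for Rplp2 through library 8 of KD alone. Without that library the difference of Rplp2 was 0.70 (adjusted p 0.031 in limma). The difference of Rplp0 without it was -0.86 with an adjusted p of 0.0041 in limma, and over all alternatives it lay between -1.21 and -0.86 with adjusted p between 0.0013 and 0.0402.

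Over all 85 protein genes the median in KD was 0.13, with 69 above 0, beside a median of -0.01 over all genes. Without library 8, which was lowest in its group for 84 of them, the median was 0.35 and 7 of 85 were higher (8.24%), beside 8.54% of all genes higher in that fit. Rpl5 had 3070, 3433 and 3565 in 36S and 5048, 3406 and 5170 in KD, where library 8 alone lay within the 36S range. Its difference was 0.41 (SE 0.18, adjusted p 0.17 in limma), and 0.61 without library 8 (adjusted p 0.012). Rpl7l1 had 641, 545 and 540 in KD, below every 36S library, with a difference of -0.40 (SE 0.13, adjusted p 0.092 in limma). Rpl3l had 38.0, 13.2 and 45.5 in KD against 14.7, 11.5 and 7.07 in 36S (1.34, SE 0.53, adjusted p 0.14 in limma), and the difference was 1.87 without library 8 (adjusted p 0.030). The difference of Rpl7l1 was -0.36 without library 8 (adjusted p 0.108 in limma) and -0.52 with columns scaled to equal totals (adjusted p 0.033 in limma).

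Of 14 copies that passed the filter 1 was higher in KD and 0 were lower. Rpl27-ps3, a copy of the large subunit gene Rpl27, was listed at 0 in all 3 libraries of 36S and had 220, 146 and 38.4 in KD. It could enter the test only through KD, where it is high, so no p is given for it. In 36N it had 17.5, 0 and 0. Its coding sequence differed from Rpl27 at 0 of 408 bases, and 0% of its runs of 31 bases were in no other gene. Rps23-ps1, a copy of the small subunit gene Rps23, had 0, 201 and 37.0 in 36S, 192, 314 and 625 in 36N, and 650, 432 and 243 in KD. The 36N groups overlapped with 36S (adjusted p 0.18 in limma) and the KD libraries did not (adjusted p 0.095 in limma). The KD difference passed in 2 of 13 alternatives, without library 1 of 36S (2.22, adjusted p 0.0499 in limma) or library 2 (6.06, adjusted p 0.027 in limma). Without library 8 of KD it was 4.335 (adjusted p 0.135 in limma), and the highest adjusted p over the alternatives was 0.211 in limma.

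**Figure D2:**
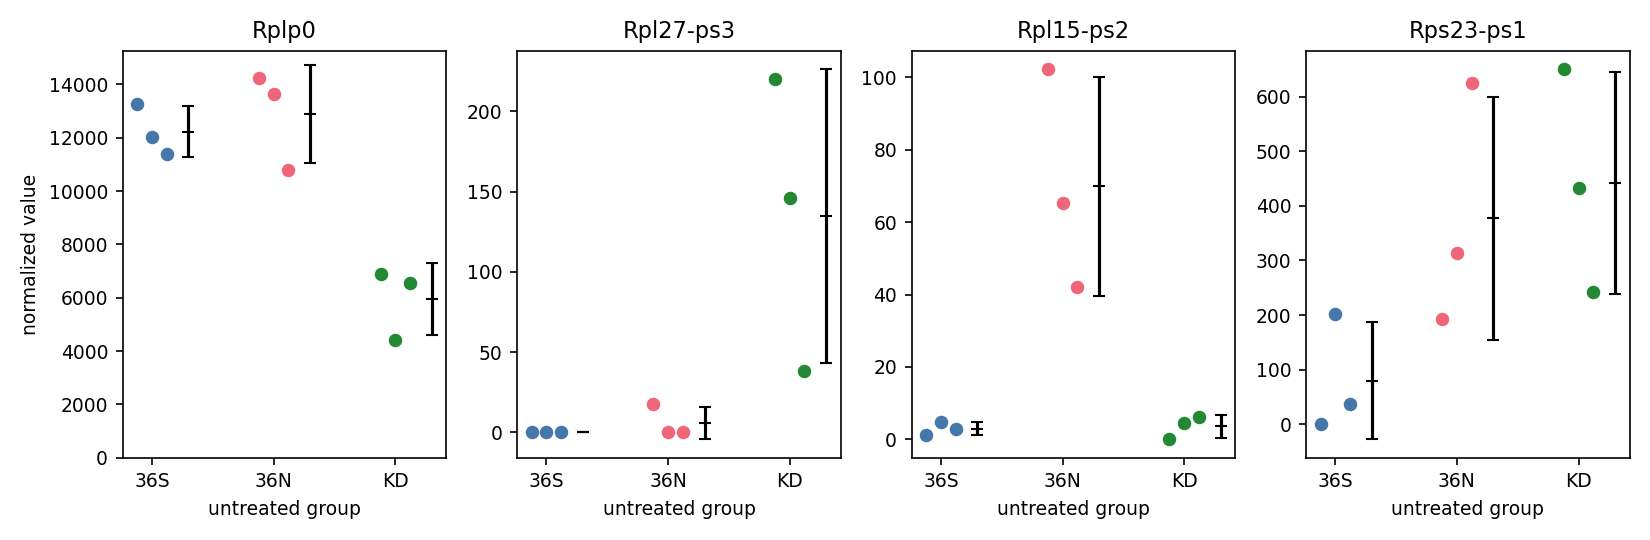
Normalized values (vertical axis) of Rplp0 and of the copies Rpl27-ps3, Rpl15-ps2 and Rps23-ps1 in untreated 36S, 36N and KD libraries, with each library as a point and the mean and SD (n = 3) as a bar beside them. Rplp0 was between 4428 and 6892 in KD and at 10780 or above in the other groups, and Rpl15-ps2 was at 42.2 or above in 36N alone.

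Genes that work with ribosomal proteins were read from lists. Of 3 ribosomal proteins with other names, among them Fau and Rack1, 0 were called in either genotype comparison. The same held for 21 other TOP mRNA genes of translation, 14 regulators of TOP mRNA translation and 78 mitochondrial ribosomal proteins. Of 16 chaperones, importers and 5S particle genes, 0 were called in 36N and 1 was lower in KD, Ipo7, an importin that carries ribosomal proteins into the nucleus (-0.49, SE 0.12, adjusted p 0.030 in limma). Cell markers also moved. In KD 5 of 9 monocyte and macrophage genes were higher, with sums of 18621 to 22846 in 36S and 47876 to 73627 in KD. Of 8 T and NK genes 4 were higher, with sums of 89.2 to 198 and 233 to 769. Of 10 MLL-AF9 blast markers 2 were higher and 4 lower in KD, and of 8 neutrophil genes 1 and 2. Mast and basophil genes had 2 higher and 1 lower of 4, and B and plasma genes 0 and 2 of 7. In 36N 1 blast marker was higher and 3 lower of 10. There 2 of 9 monocyte and macrophage genes and 1 of 8 neutrophil genes were higher. Of all genes 6.61% were higher and 4.86% lower in KD, and 2.55 and 2.01% in 36N. The mast and basophil markers Fcer1a, Tpsb2 and Cma1 had no row for these libraries, and no marker with a row was at 0 in all of them. The part of these cells in the values of Rplp0 and the copies was not tested.

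In 36N cells protein genes differed with TMZ in both directions, as genes at large did. Of 88 protein genes 35 were higher and 34 lower (limma, adjusted p under 0.05 over 14390 genes), 78.4% in all, beside 69.7% of all genes tested. For 74 of the 88 the groups did not overlap, beside 74.5% of all genes. The median log2 difference was 0.11 (0.06 for all genes) and the median size was 0.97 (1.06 for all genes). A difference of 2-fold or more was found for 44 of the 88 (50.0%), beside 52.1% of all genes. Large subunit genes had 18 higher and 22 lower of 52, and small subunit genes 17 higher and 12 lower of 36. Untreated and treated samples also differed in cell markers: all 8 mast cell and basophil genes were higher (sums of 350 to 1075 untreated and 95074 to 278183 treated), all 4 megakaryocyte genes were higher (33.1 to 65.2 and 28786 to 56654), and all 6 B and plasma cell genes tested were lower (8776 to 15108 and 215 to 504). Other marker lists were less uniform. T and NK genes had 2 higher and 5 lower of 8, while their sums were 208 to 304 untreated and 6365 to 9040 treated. Blast markers had 3 higher and 5 lower of 10, and monocyte and macrophage genes 3 and 3 of 9. Neutrophil genes had 1 higher and 2 lower of 8, and erythroid genes 3 and 0 of 6. No marker list had a gene at 0 in all libraries here, and what these cells contributed to the ribosomal values was not tested.

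**Figure D3:**
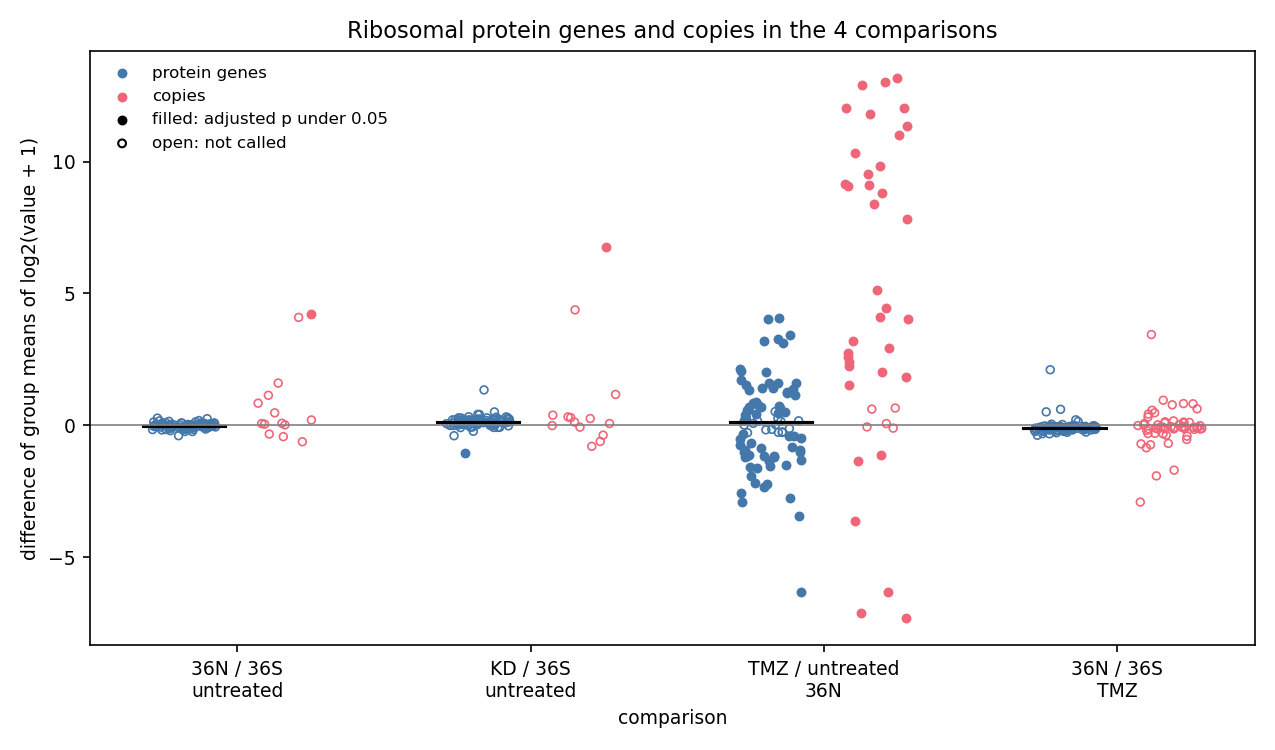
Difference of group means of log2(value + 1) (vertical axis) for each tested protein gene (blue) and copy (red) in the 4 comparisons, with filled points for an adjusted p under 0.05 and black lines for protein gene medians. In the genotype comparisons Rplp0 in KD was the only protein gene called, and with TMZ in 36N protein genes spread from -6.34 to 4.05.

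Among small subunit genes Rps27 differed most. It had 5751, 6426 and 4856 in untreated and 78.6, 58.0 and 71.2 in TMZ libraries, a difference of -6.34 (SE 0.17, adjusted p 4.6e-07 in limma). Its retrogene Rps27rt had 3013, 2485 and 2500 untreated and 3758, 3845 and 4320 with TMZ (0.58, SE 0.12). Its paralog Rps27l, known as a p53 target, rose from 999, 861 and 872 to 1524, 1424 and 1491 (0.70, SE 0.11), a rise within this table that was at -0.07 around the median gene when values came from 2 tables. Every treated library was below every untreated one for Rps27 and above it for Rps27rt and Rps27l. Rps12 fell from 16067, 16069 and 12946 to 2528, 2456 and 2576 (-2.57, SE 0.12).

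Other small subunit genes rose. Rps14, lost in 5q- syndrome, had 1767, 1366 and 1172 untreated and 11234, 11628 and 14774 with TMZ (3.14, SE 0.18). Rps15a had 1781, 1564 and 1388 untreated and 13498, 14893 and 15165 with TMZ (3.21, SE 0.13). Rps19, the gene most often mutated in Diamond-Blackfan anemia, rose by 2.01 (SE 0.13), Rpsa, also known as the laminin receptor, by 1.73 (SE 0.15), Rps27a, made as a fusion with ubiquitin, by 1.26 (SE 0.17) and Rps3, which also has a role in DNA repair, by 1.14 (SE 0.15). In each of these genes every treated library was above every untreated one within this table. When values came from 2 tables, Rps19 was at 0.16 and Rpsa at 0.33 around the median gene. By that route Rps3 was at 0.56, Rps27a at 1.13, Rps15a at 0.01 and Rps14 at 2.86. Rps6, the substrate of the S6 kinases, fell by 1.34 (SE 0.15).

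Large subunit genes also differed in both directions. Rpl13a, a protein with an extraribosomal role in silencing inflammatory mRNAs, had 4120, 3877 and 3326 untreated and 38762, 40132 and 41224 with TMZ (3.41, SE 0.13, adjusted p 1.3e-06 in limma). Rpl18 had 2801, 2586 and 2005 untreated and 21928, 23890 and 24909 with TMZ (3.27, SE 0.15). Rpl5 fell from 7575, 8069 and 7041 to 611, 817 and 664 (-3.45, SE 0.14), whereas Rpl11, its partner in the 5S particle, had 6645, 6466 and 5302 untreated and 6481, 6034 and 6779 with TMZ (0.07, SE 0.13, adjusted p 0.63 in limma). Rpl13 fell from 25680, 23867 and 21257 to 4399, 4715 and 4996 (-2.32, SE 0.12). Among these 5 genes the groups overlapped for Rpl11 alone.

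Of the stalk genes, Rplp2 rose by 1.24 within this table (SE 0.11), but was at -0.10 around the median gene when values came from 2 tables. Rplp1 had a difference of 0.40 (SE 0.14, adjusted p 0.036 in limma), a call that was lost in 7 of 15 alternatives, among them untreated library 5 or 6 or TMZ library 4 or 6 left out (adjusted p 0.071 to 0.101) and the replicate block (adjusted p 0.061). Rplp0 had 20658, 19760 and 15698 untreated and 25328, 27363 and 13072 with TMZ (0.17, SE 0.29, adjusted p 0.62 in limma), and 0.50 without TMZ library 6, which was lowest (adjusted p 0.029). Among paralogs, Rpl22 fell by 1.01 (SE 0.12) and Rpl22l1, its paralog, by 0.49 (SE 0.12). Rpl36a fell by 2.92 (SE 0.14) and Rpl36al by 1.58 (SE 0.12). Rpl7l1 rose by 1.62 (SE 0.13) within this table and was at 0.66 around the median gene when values came from 2 tables. Rpl26, which binds p53 mRNA, had 11495, 11548 and 10010 untreated and 8999, 8839 and 9585 with TMZ (-0.27, SE 0.12, adjusted p 0.073 in limma), and passed at -0.33 without untreated library 6 (adjusted p 0.040), at -0.42 with equal totals and at -0.52 with quantile normalization. Rpl37rt, annotated as a pseudogene of Rpl37, had 478, 438 and 366 untreated and 6362, 6908 and 7747 with TMZ (4.04, SE 0.14). Of 19 protein genes with a pyrimidine run at the start 7 were higher and 8 lower, and of the other 69 genes 28 were higher and 26 lower.

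Counts of the lists beside them are to be read against the 36.3% of all genes that were higher and the 33.5% that were lower. Of 3 ribosomal proteins with other names 2 were higher and 1 lower. Among them Rack1 rose by 1.69 (SE 0.13) and Fau fell by 0.76 (SE 0.13). Of 21 other TOP mRNA genes 6 were higher and 5 lower (28.6 and 23.8%), with Eef1g, a subunit of elongation factor 1, up by 1.86 (SE 0.17) and Tpt1 down by 1.12 (SE 0.18). Of 78 mitochondrial ribosomal proteins 34 were higher and 9 lower (43.6 and 11.5%, median 0.37), with Mrpl2 up by 3.51 (SE 0.18) and Mrpl23 down by 2.75 (SE 0.20). Of 14 regulators 4 were higher and 6 lower (28.6 and 42.9%), among them Larp4 (-2.25, SE 0.16) and Larp1, which binds the TOP motif (-1.23, SE 0.16). Of 16 chaperones and 5S particle genes 6 were higher and 6 lower (37.5% each).

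Copies were called in 36 of 41 cases, 30 higher and 6 lower, beside 36.3% of all genes higher and 33.5% lower. A copy listed at 0 in one group can enter the test only through the other, and 17 of the 41 had no untreated library at 10, so this count shows no more than that they were listed in TMZ libraries. Of the 41, 7 were listed at 0 in every untreated library and 1, Rps13-ps1, in every TMZ library. The sources used here do not say whether treated and untreated libraries were quantified against the same transcript index, so a copy is given as listed at 0, not as absent. Rps12-ps3, the copy printed above, was listed at 0 in the 3 untreated libraries and had 8364, 8346 and 8423 with TMZ. Rpl10-ps3 was listed at 0 untreated and had 8981, 8222 and 10716, and Rpl28-ps1 was listed at 0 untreated and had 7819, 7374 and 7810.

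The same held for Rpl15-ps3, Rps13-ps2, Rpl36a-ps2 and Rpl38-ps2, at 1952 to 4370 with TMZ. Rps6-ps4 had 15.5, 0 and 128 untreated and 8729, 10113 and 9976 with TMZ, and Rpl27-ps3, the copy that was listed in KD, had 19.9, 0 and 0 untreated and 3346, 3362 and 4008 with TMZ. Among the copies that fell were Rps13-ps1 (124, 137 and 158 untreated), Rpl17-ps8, Rpl13-ps1, Rpl15-ps2 and Rps2-ps10. Rpl15-ps2, the copy that was higher in 36N than in 36S, had 152, 97.4 and 63.2 untreated and 10.0, 5.58 and 5.91 with TMZ.

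The 30 copies that were higher belonged to 25 protein genes, of which 15 fell, 8 rose and 2 were not called. Over all 88 protein genes 34 fell and 35 rose. With TMZ 10 of the 30 copies had a higher value than the gene they are named for, and 0 did without it. As 17 of the 41 tested copies had no untreated library at 10, these counts partly follow from the filter. They only describe the copies listed with TMZ. Because gene and copy share most of their sequence, their values were also added. Rps12 and its 8 copies together had 15033 ± 1802 (SD, n = 3) untreated and 10926 ± 94.7 with TMZ, a difference of -0.45 in place of -2.57 for Rps12 alone (SE 0.13, adjusted p 0.016 in limma). The copies made up 0.0421% of the sum untreated and 76.9% with TMZ. Rpl10, a protein that joins the subunits late in assembly, went from -1.53 alone to 0.26 with its copies (SE 0.13, adjusted p 0.12 in limma), and Rps6 from -1.34 to -0.11 (SE 0.15, adjusted p 0.54 in limma). Rpl10a went from -1.18 to -0.01 (SE 0.14, adjusted p 0.96 in limma).

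Over the 41 genes whose copies reached 10 in the 2 group means together, 13 were higher and 20 lower alone, and 17 higher and 12 lower as sums, while the median size of the difference went from 1.03 to 0.72. The other 47 had 22 higher and 14 lower and a median size of 0.89 either way. Over all 88 the sums gave 39 higher and 26 lower. Rps27 has 0 named copies in that table, so the sums left its value as it was. Rps27rt, with the same coding sequence but no -ps in its name, was not added to it. Within that table Rps27rt rose by 0.58 and lay above Rps27 with TMZ. Only 1.27% of the runs of 31 bases of Rps27 and 7.27% of those of Rps27rt were in no other gene. The size of the fall of Rps27 alone is therefore uncertain, and the sum of Rps27 and Rps27rt was not tested. As sums within that table, Rpl13 was at -2.34 and Rps15a at 3.33. When values came from 2 tables, Rps15a alone was at 0.01 around the median gene. Added values are approximate where genes and copies were normalized by different factors.

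**Figure D4:**
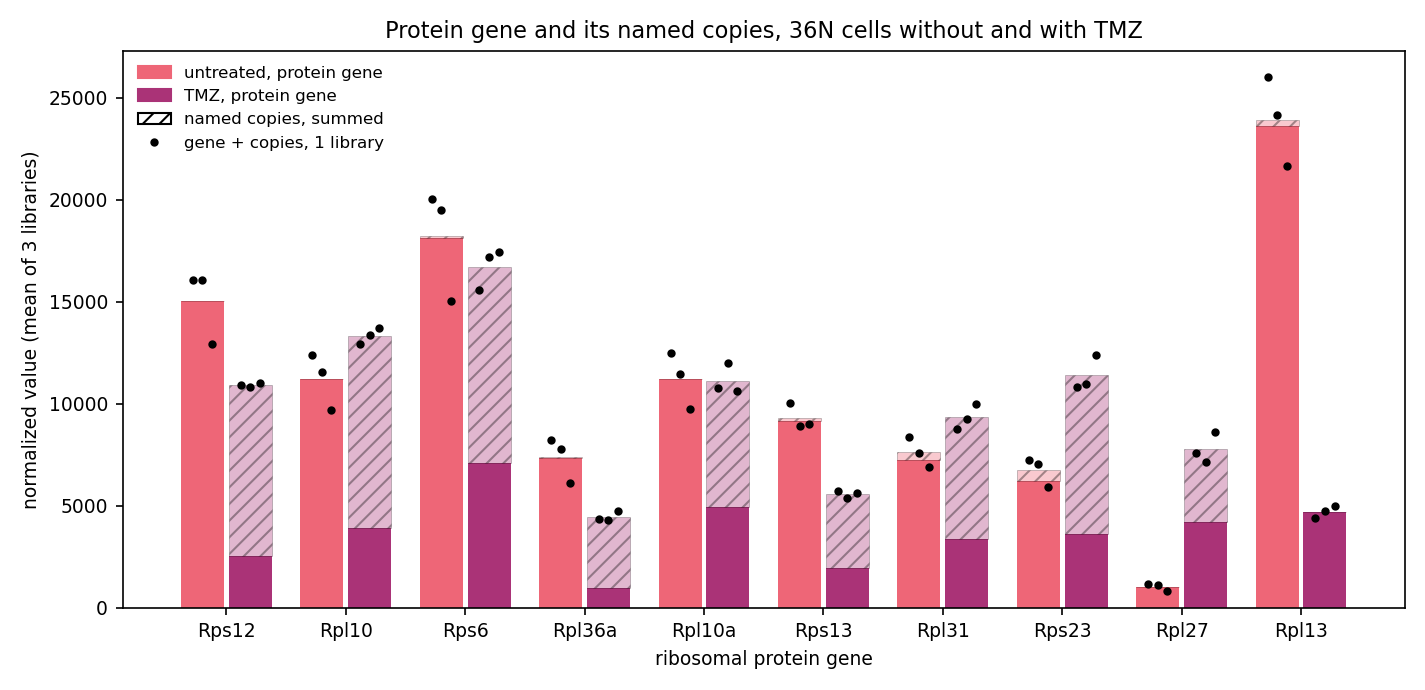
Mean normalized value (vertical axis) of 10 ribosomal protein genes (solid) with the sum of their named copies stacked on top (hatched), in untreated (left bar) and TMZ-treated (right bar) 36N libraries, with points for the sum of gene and copies in each of 3 libraries. Copies made up 76.9% of the Rps12 sum and 70.6% of the Rpl10 sum with TMZ, and 0.0421% and 0.0753% without.

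The same 36N libraries occur in a second table each, and the deposited values differ between tables by a factor that depends on the gene. Between the untreated 36N values of the genotype table and of the TMZ table, the log2 ratio of a gene varied from -0.70 to 0.38 around the median gene (5th to 95th percentile), and was the same in the 3 libraries within 0.05 for 99.9% of genes. Rpl13a in untreated 36N library 4 was thus 7399 in one table and 4120 in the other. The deposited scaling thus differed by gene as well as by library, and differences were set side by side by 2 routes: treated minus untreated within the TMZ table, and treated values of the second TMZ table minus untreated values of the genotype table, each centred on the median gene. The second route crosses tables and is given without a test.

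By the 2 routes 70 of 83 protein genes had the same sign (84.3%, and 84.1% of all 11471 genes), and 41 differed by 2-fold or more within the table against 34 across tables. The 13 others were all above the median gene within the table and below it across tables, among them Rplp2 (1.22 and -0.10), Rps27l (0.68 and -0.07) and Rpl11 (0.05 and -1.21). Rps27 was at -6.36 and -6.24, Rpl5 at -3.47 and -2.55 and Rps14 at 3.11 and 2.86, so these were large and of the same sign by both routes. Rpl13a went from 3.39 to 0.76, Rpl18 from 3.25 to 0.47, Rps15a from 3.18 to 0.01 and Rpl37rt from 4.01 to 1.35. Rpl28, named for its value here, went from -0.28 to -3.31. The sizes of the largest rises therefore depended on which table the values came from, and the sources used here do not name the step that made the gene-specific factor.

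**Figure D5:**
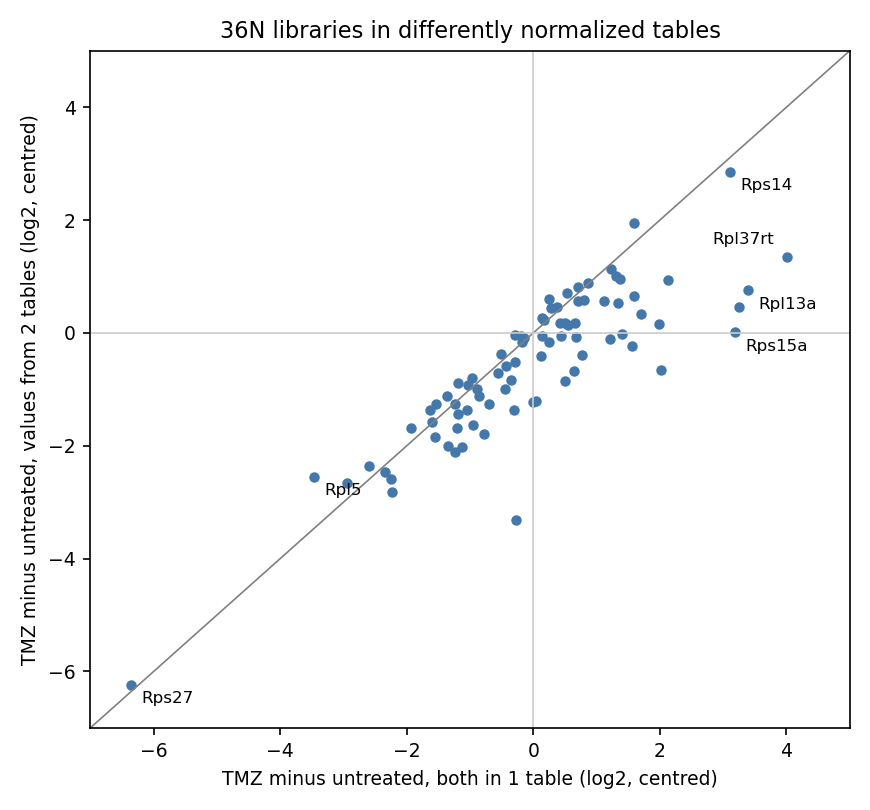
TMZ minus untreated log2 difference of 83 ribosomal protein genes in 36N cells, centred on the median gene, with both values from 1 table (horizontal axis) and with values from 2 differently normalized tables (vertical axis), where the grey diagonal marks equal values. Rps27 and Rps14 lie near the diagonal, and Rpl13a, Rps15a and Rpl37rt lie below it.

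With TMZ in both genotypes, no ribosomal gene was called between 36N and 36S. Of 87 protein genes 0 were called and 0 had an unadjusted p under 0.05, and of 56 copies 0 were called and 3 had an unadjusted p under 0.05, where 0% of 14246 genes were called in limma and 191 had an unadjusted p under 0.05. The groups did not overlap for 0 protein genes and 3 copies, beside 4.76% of all genes. The median log2 difference of protein genes was -0.11, with 80 of 87 below 0, beside 0.01 for all genes. Without library 3 of 36S TMZ, which was highest in its group for 81 of the 87, the median was 0.23. Rpl13a, for instance, had 19075, 19580 and 36733 in 36S and 22712, 23304 and 23670 in 36N, and library 3 alone lay above 36N. In simulated data 15% of 2-fold and 89% of 4-fold differences were recovered. The simulation gave every gene independent noise of the same size, taken from 36S TMZ. It did not hold the shift of library 3 that protein genes shared, so it is only a rough guide to what was missed here.

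The members that stood out with TMZ in 36N had similar levels in 36S TMZ, in the table that holds both. Rps27 had 86.3, 122 and 96.5 in 36S and 120, 87.4 and 106 in 36N, and Rps12-ps3 had 10149, 11701 and 24867 in 36S and 13164, 13017 and 12989 in 36N. The 3 copies with the lowest p were Rpl10-ps6 (0, 0 and 5.02 in 36S and 19.8, 24.6 and 13.4 in 36N), Rpl34-ps1 (229, 319 and 369 in 36S and 205, 202 and 140 in 36N) and Rpl36a-ps1 (32.6, 37.0 and 69.0 in 36S and 89.1, 87.0 and 80.4 in 36N), each with an adjusted p of 0.9998 in limma. A test of whether the 36N to 36S difference itself changed with TMZ, added after the data were seen, called 0 of 94 ribosomal genes, 4 of them at an unadjusted p under 0.05, beside 0.333% of 12324 genes. No table used here holds 36S cells with and without TMZ, so TMZ was not tested in 36S.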

How the data were processed

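RNA sequencing values of 15 libraries (5 groups of 3, from the sample labels) were read from 4 deposited tables, whose unit is a normalized signal: gene-level counts scaled by the authors. Salmon, DESeq2 and mm10 are named, with no version or role, per the submitters' processing notes. Column totals were 11.27 to 24.26 in units of 1e6. Read depth is unknown, so no counting intervals are given. The 36S values of both genotype tables were identical, so these comparisons share their controls.

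Values were tested within a table as log2(value + 1), after a filter of 10 in at least 3 libraries, with limma-trend (limma 3.58.1, R 4.3.3), Benjamini-Hochberg adjustment over all genes of the table and a threshold of 0.05. Log2 differences understate changes of low genes. The procedure was tested on simulated data with independent noise of the same size for every gene, taken from the reference group. There 73, 77, 56 and 15% of 2-fold changes were recovered for 36N, KD, TMZ in 36N and 36N with TMZ. Shifts that genes share within a library were not simulated. Sequences were compared with Biopython 1.88 on GENCODE M21 transcripts (GRCm38), and promoters came from RefSeq (GRCm38.p6).

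The members, lists and rules were chosen with earlier results of these data known. Named were 23 genes whatever their values, up to 6 protein genes and 6 copies with the lowest p in each direction, and extremes of level. A few genes that these rules take are not reported here. The others, among them Rplp1 and Rplp2 outside their own calls, Rpl28 across tables, and family examples, were chosen after values were seen. The fits were repeated with a pseudocount of 0.5 or 5, with no filter or one at 50, with columns scaled to equal totals, by quantiles or by median ratios of other genes, without each library, and with a block by library number. Sums over copies were added after seeing the data. Alternatives are reported gene by gene for named genes with an unadjusted p under 0.2 or with a difference printed, a limit also set after seeing the data, and as counts for the rest. Same-numbered 36N libraries with and without TMZ had deviations correlated at 0.019, 0.0371 and 0.0858, which was not read as pairing.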

Additional observations from a re-analysis of the deposited data

How the results depend on the processing

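Of 277 recomputed counts and medians, 256 stayed within 1.5 times the reported count or within the spread between libraries. No filter gave 1 lower copy for 36N and, for TMZ in 36N, 53 higher and 11 lower copies. A filter of 50 gave 0 higher copies for 36N and 0 for KD, since Rpl15-ps2 and Rpl27-ps3 then went untested. Equal totals gave 2 lower protein genes for KD. The protein gene median for TMZ in 36N was -0.0412 with equal totals, -0.0682 with quantile normalization and 0.26 with copies summed, so its sign depends on the scaling. Leaving out each library gave 0 to 1 higher copies for 36N, 0 to 7 higher protein genes and 0 to 2 higher copies for KD, and 13 to 30 higher copies for TMZ in 36N. Without a TMZ library, copies listed at 0 in untreated cells could no longer pass a filter of 3 libraries. The same holds for Rpl15-ps2 without a 36N library and for Rpl27-ps3 without a KD library, and 2 higher copies were found without library 1 or 2 of 36S. With the replicate block there were 35 higher and 33 lower protein genes for TMZ in 36N, and among 43 named genes it changed the call of 1, Rplp1 (0.40, adjusted p 0.061 in limma). The numbers were not read as a pairing.

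Single differences that changed sign were those of Rplp0 in 36N (-0.00938 to 0.192 with each library left out), Rplp0 with TMZ (-0.14 with quantile normalization, -0.0297 to 0.503 with each library left out), Rpl11 with TMZ (-0.0802 with equal totals, -0.0290 to 0.134 with each library left out) and Rpl10 with TMZ (0.26 with copies summed). None of the reported differences of Rplp0 and Rpl11 here was called. Over the 76 values followed singly, 11 of 1019 recomputed values passed the threshold where the reported one did not and 10 no longer passed, 7 of them for Rplp1 with TMZ. Gains were 3 for Rpl26 with TMZ, 1 for Rplp0 with TMZ and 7 in KD, of which 4 came without library 8 (Rpl3l, Rpl5, Rplp2 and Rps27rt). Among 85 other values of named genes with an unadjusted p of 0.2 or more, 54 changed sign under at least 1 alternative, 111 times in 1154 recomputed values, and 0 of these passed the threshold. The causes were not tested. Near-identical copies, unknown depth and gene-specific scaling between tables limit every level of a single gene.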
